A study of Mus musculus with 10 samples.

Results

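Genes of the IL-6 and IL-22 receptor pathway to STAT3 were examined in proximal small intestine of mice with and without the zinc transporter *Zip14* (*Slc39a14*). The group holds 10 genes, chosen by symbol, of 35275 gene IDs in the count tables: the receptor chains *Il6ra*, *Il6st*, *Il22ra1* and *Il10rb*, the kinases *Jak1* and *Jak2*, the transcription factor *Stat3*, and *Socs3*, *Pim1* and *Bcl3*, which STAT3 can induce. RNA-seq was carried out on 5 WT and 5 KO mice, with 1 library per mouse, to find transcripts that differ with *Zip14* ablation. The labels give the tissue as proximal intestine for all 10 libraries, the genotype as WT or KO, and an age of 8 to 10 weeks. The study's methods describe a conventional whole-body knockout with WT mice from the same matings, and mice of both sexes, and give a wider age range than the labels, whereas the title of the deposited series speaks of an enterocyte-specific deletion. The groups are therefore named WT and KO as in the labels. Age and sex were not analysed per mouse.

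IL-6 binds its own receptor chain, encoded by *Il6ra*, and the pair then recruits the shared signal chain gp130, encoded by *Il6st*. IL-22 binds a receptor built from the *Il22ra1* and *Il10rb* chains, which in the intestine sits on epithelial cells and is known for its part in barrier repair and antimicrobial defence. Both receptors activate JAK kinases that phosphorylate STAT3. STAT3 then drives target genes, among them *Socs3*, whose product blocks gp130 and the JAK kinases in a feedback loop.

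The 5 WT libraries held 16729787 to 20819678 counts and the 5 KO libraries 17118742 to 19414828. *Slc39a14*, the targeted gene, was at 260.4 ± 62.5 CPM (counts scaled to a common library size with TMM factors, SD, n = 5) in WT and at 102 ± 32.9 CPM in KO, with no overlap between the groups (log2 fold change −1.35, SE 0.22, edgeR adjusted p = 0.00184). Reads of the gene were thus still counted in KO libraries, and which part of the gene was deleted was not analysed here. The groups also differed in markers of tissue region and cell type. Counts of markers called here are to be read against all 15610 genes tested, of which 16.0% were higher and 13.9% lower in KO (edgeR adjusted p under 0.05). The summed level of 8 genes typical of ileum was 792 to 1949.6 CPM in WT and 4612 to 12045 CPM in KO, with 6 of 8 higher. The summed level of 8 genes typical of proximal intestine was 5071 to 5574 CPM in WT and 574 to 1467 CPM in KO, with 3 of the 6 that could be tested lower. In those markers the KO libraries thus went against their tissue label. Of 10 smooth muscle markers 9 were higher in KO (sums of 1629 to 2674 CPM in WT and 3599.7 to 10596 CPM in KO), and of 10 enterocyte markers 6 were lower (sums of 35026 to 48003 and of 16177 to 33982 CPM). For T cells (0 of 8 higher, 0 lower), B and plasma cells (1 of 8 higher), macrophages (1 of 8 lower), neutrophils (0 of the 1 tested), fibroblasts (4 of 8 higher), endothelium (2 of 8 lower) and Paneth and goblet cells (4 of 10 higher), the summed levels overlapped between the groups. No marker of these 11 lists was at 0 in all libraries. The paper places the highest *Zip14* expression in the proximal small intestine, with a decrease along the gut. The part of tissue region and of cell composition in the level of *Slc39a14* and in the results that follow was not tested. In bulk tissue, fewer cells of a type and less RNA per cell cannot be told apart.

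**Figure D1:**
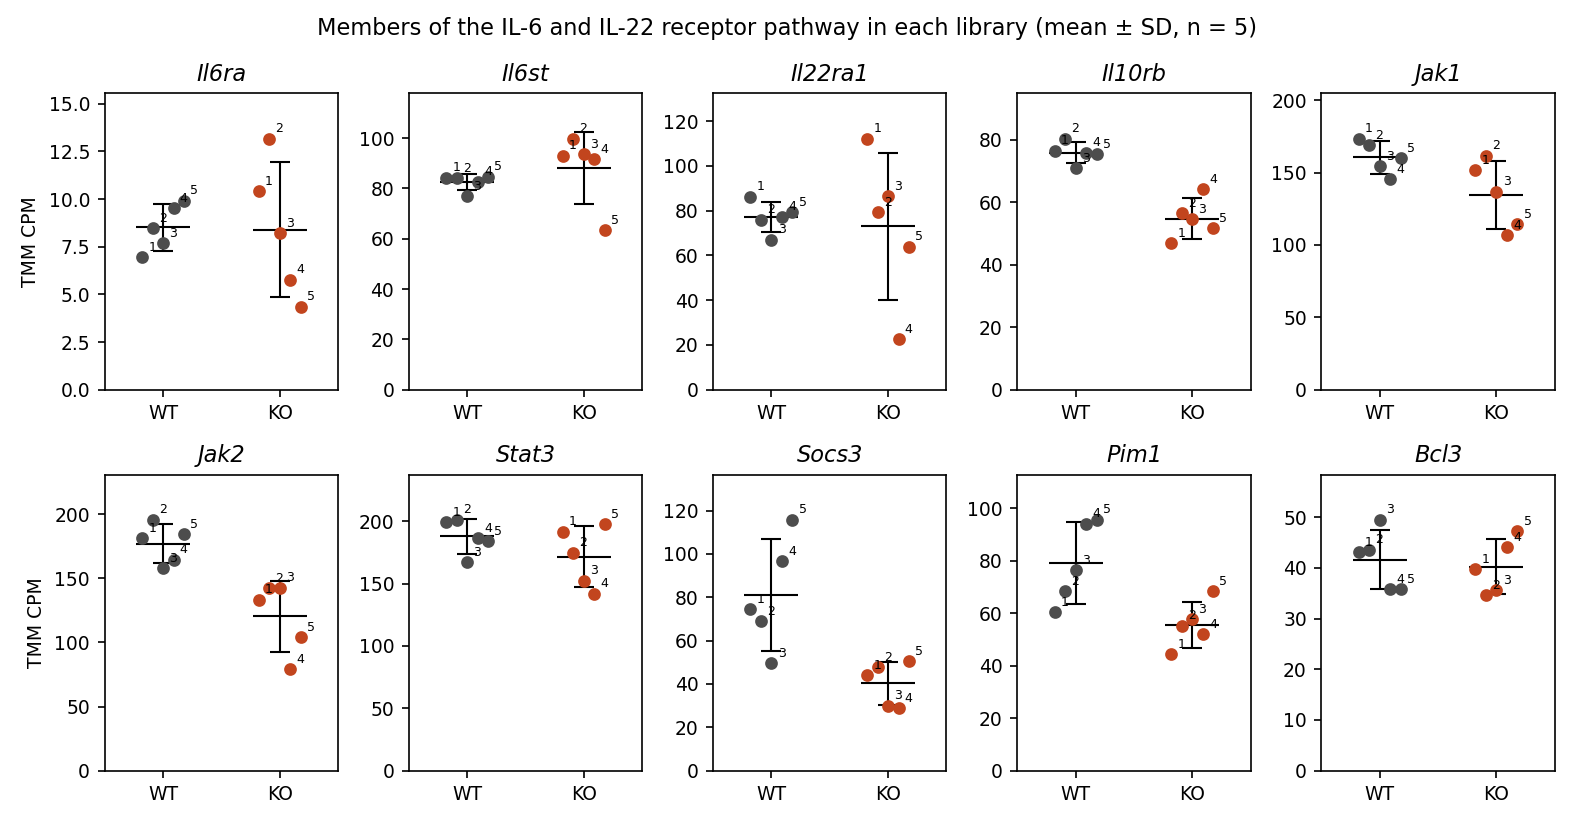
TMM CPM of each of the 10 genes in every library, with WT in grey, KO in orange, the replicate number beside each point and bars for mean ± SD (n = 5). All 5 KO points lie below all 5 WT points for Il10rb and Jak2, and the KO points of Il22ra1 run from 22.7 to 112 CPM.

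All 10 genes passed the filter on low counts and were tested. In KO, 4 of 10 fell, namely *Socs3*, *Jak2*, *Pim1* and *Il10rb*, and 0 rose. Over all 15610 genes tested, 29.9% passed the same threshold (adjusted p under 0.05), 13.9% as lower and 16.0% as higher in KO. The calls among the 10 genes are to be read against that background. The median log2 fold change of the 10 genes was −0.19, against 0.03 over all genes tested. The groups did not overlap for 2 of the 10, *Jak2* and *Il10rb*, against 21.1% of all genes tested. *Il6ra*, *Il6st*, *Il22ra1*, *Jak1*, *Stat3* and *Bcl3* did not pass the test in either direction.

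Promoter sequences are shown for *Socs3*, the gene with the largest fold change and the only one of the group with a STAT motif in its window, and, for comparison, for *Jak2*, which also fell, and *Stat3*, which did not pass the test. They are from RefSeq on GRCm38.p6, written 5′ to 3′ on the strand of the gene, and lie before the start site that RefSeq gives. The *Jak2* and *Stat3* stretches end at the base before it, whereas that of *Socs3*, centred near its motif, is a region farther upstream. Capitals mark the motif TTCNNNGAA, a palindrome that STAT proteins are known to bind, so that a search of 1 strand covers both.
Socs3, chr11:117969472-117969560, minus strand: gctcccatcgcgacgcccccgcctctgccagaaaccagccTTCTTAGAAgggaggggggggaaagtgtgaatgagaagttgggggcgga
Jak2, chr19:29251703-29251802, plus strand: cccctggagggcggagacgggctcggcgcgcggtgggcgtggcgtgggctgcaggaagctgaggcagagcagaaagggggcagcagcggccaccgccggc
Stat3, chr11:100939541-100939640, minus strand: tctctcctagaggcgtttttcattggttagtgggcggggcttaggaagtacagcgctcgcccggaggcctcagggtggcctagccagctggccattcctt

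The *Socs3* match, TTCTTAGAA, lies 154 to 146 bases before the RefSeq start site and outside every exon of *Socs3* in GENCODE M21, though inside the gene as annotated there, which starts farther upstream with a noncoding transcript. The windows searched ran from 250 bases before to 50 bases after a start site, and 9 of the 10 genes matched an entry in the RefSeq table, *Pim1* with 2 start sites. *Il10rb* had no entry. TTCNNNGAA was found in 2726 of all 32851 windows (8.30%), and in the 10 windows of the group only in that of *Socs3*. The stricter form TTCCNGGAA was in 377 windows (1.15%) and in none of the 10. The base composition of the 10 windows ranged from 49.0% G and C at the downstream start site of *Pim1* to 81.3% at the upstream one. Such matches describe letters of the reference and say nothing of binding in these mice.

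Of the 4 receptor chains, 1 fell and 0 rose, where 13.9% of all genes tested fell and 16.0% rose. *Il10rb*, the chain that the IL-22 receptor shares with the receptors for IL-10 and the lambda interferons, fell by 0.47 on the log2 scale, while *Il22ra1*, *Il6ra* and *Il6st* did not pass the test.

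*Il10rb* (GRCm38 chr16:91406164-91425834, plus strand) was at 76.5, 80.4, 71.0, 75.9 and 75.5 CPM in WT replicates 1 to 5. In KO replicates 1 to 5 it was at 46.8, 56.5, 54.7, 64.3 and 51.7 CPM. The highest KO library stood below the lowest WT library, so the groups did not overlap. The means were 75.9 ± 3.32 CPM in WT and 54.8 ± 6.45 CPM in KO, a log2 fold change of −0.47 (SE 0.09, 95% interval −0.67 to −0.27, edgeR adjusted p = 0.00402). The call held in each of the 10 fits that left out 1 mouse. A protein-coding model annotated on the same strand, *Gm21970*, shares 569 bases of exon with *Il10rb* and had 0 counts in all libraries, so reads from it, if any, are included in the *Il10rb* value or were not counted.

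*Il22ra1* (chr4:135728172-135752140, plus strand), the chain specific to IL-22 and its closest relatives, was at 86.3, 76.0, 67.1, 77.4 and 79.3 CPM in WT. In KO it was at 112, 79.5, 86.4, 22.7 and 64.0 CPM. The WT libraries were close together, whereas KO replicates 1 and 3 were above all of them, replicate 3 only just, and KO replicates 4 and 5 below, replicate 4 by far. The log2 fold change was −0.08 (SE 0.31, interval −0.76 to 0.60, edgeR adjusted p = 0.862), and it was 0.15 without KO replicate 4 (edgeR adjusted p = 0.476). KO replicate 4 also had the highest summed level of smooth muscle markers, 10596 CPM, and KO replicate 1 the highest KO level of enterocyte markers, 33982 CPM, and the part of these levels in the spread was not tested.

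*Il6ra* (chr3:89864059-89913196, minus strand) had the lowest counts of the group, between 83 and 251 per library. It was at 6.95, 8.48, 7.70, 9.51 and 9.92 CPM in WT and at 10.4, 13.2, 8.20, 5.77 and 4.35 CPM in KO. KO replicates 1 and 2 were above and KO replicates 4 and 5 below every WT library. The log2 fold change was −0.02 (SE 0.27, interval −0.61 to 0.57, edgeR adjusted p = 0.957), and its sign changed with the library left out and with the scaling.

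*Il6st* (chr13:112464070-112510086, plus strand), which also serves IL-11, LIF and oncostatin M, was at 84.3, 84.1, 77.0, 82.7 and 84.7 CPM in WT. In KO it was at 93.0, 99.8, 93.6, 91.5 and 63.4 CPM. KO replicates 1 to 4 were above every WT library and KO replicate 5 was below every one of them. The log2 fold change was 0.10 (SE 0.11, interval −0.15 to 0.35, edgeR adjusted p = 0.546). It was 0.19 without KO replicate 5 (edgeR adjusted p = 0.0589), 0.040 without KO replicate 2 and 0.22 when scaled to library size only, and was called in none of these.

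Of the kinases, *Jak2* fell and *Jak1* did not pass the test, where 13.9% of all genes tested fell. Their products bind the inner part of cytokine receptors, and gp130 can use either. *Jak2* (chr19:29251828-29313080, plus strand) was at 181, 196, 158, 165 and 184 CPM in WT and at 133, 142, 143, 79.3 and 104 CPM in KO. No KO library reached the lowest WT library, and KO replicates 4 and 5 were the lowest. The means were 177 ± 15.3 and 120.4 ± 27.9 CPM, a log2 fold change of −0.56 (SE 0.16, interval −0.90 to −0.21, edgeR adjusted p = 0.0225). Without WT replicate 2 the change was −0.52 (edgeR adjusted p = 0.0563), and scaled to library size only it was −0.43 (edgeR adjusted p = 0.0532), so that the call was lost in both.

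*Jak1* (chr4:101152367-101265282, minus strand) was at 173, 169, 154, 145 and 160.1 CPM in WT and at 152, 162, 137, 107 and 114 CPM in KO. The ranges overlapped, with KO replicates 4 and 5 again the lowest of the 10 libraries. Its log2 fold change was −0.26 (SE 0.12, interval −0.52 to 0.01, edgeR adjusted p = 0.132).

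*Stat3* (chr11:100885098-100939540, minus strand) was at 199.6, 201, 167, 187 and 184 CPM in WT. In KO it was at 192, 175, 152, 142 and 198 CPM. KO replicates 1, 2 and 5 lay within the WT range and KO replicates 3 and 4 below it. The log2 fold change was −0.13 (SE 0.11, interval −0.37 to 0.11, edgeR adjusted p = 0.391). It ran from −0.18 to −0.067 when 1 mouse was left out and was −0.011 when scaled to library size only, with no call. The measurement is of mRNA and holds nothing on phosphorylation of the protein. *Stat3* shares 72 bases of exon with *Stat5a* on the other strand, which was at 10.0 ± 0.709 CPM in WT and 10.8 ± 2.11 CPM in KO.

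Of the 3 STAT3-inducible genes in the group, *Socs3* and *Pim1* fell and *Bcl3* did not pass the test, where 13.9% of all genes tested fell. *Socs3* (chr11:117966079-117970047, minus strand) had the largest fold change of the 10. It was at 74.4, 68.8, 49.5, 96.7 and 116 CPM in WT and at 44.1, 47.6, 30.0, 29.0 and 50.5 CPM in KO. Of the 5 KO libraries 4 were below every WT library, and KO replicate 5 was just above WT replicate 3. The means were 81.0 ± 25.7 and 40.2 ± 10.1 CPM, a log2 fold change of −1.01 (SE 0.24, interval −1.53 to −0.49, edgeR adjusted p = 0.00992). The call held in each of the 10 fits without 1 mouse, with log2 fold changes of −1.15 to −0.85.

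*Pim1* (chr17:29490753-29496112, plus strand), which encodes a serine/threonine kinase that promotes cell survival, was at 60.4, 68.3, 76.4, 94.1 and 95.6 CPM in WT. In KO it was at 44.5, 55.2, 57.9, 51.9 and 68.5 CPM. KO replicates 1 to 4 were below every WT library, and KO replicate 5 was above WT replicates 1 and 2. The log2 fold change was −0.51 (SE 0.15, interval −0.84 to −0.17, edgeR adjusted p = 0.0279). The call was lost without WT replicate 3 (−0.52, edgeR adjusted p = 0.0503), WT replicate 4 (−0.45, 0.0532), WT replicate 5 (−0.43, 0.0634) or KO replicate 4 (−0.48, 0.0558). It was also lost when scaled to library size only (−0.39, edgeR adjusted p = 0.0911) or to the upper quartile (−0.44, edgeR adjusted p = 0.0559). An antisense gene, *Gm26885*, shares 488 bases of exon with *Pim1* and had 2 counts in all WT and 9 in all KO libraries.

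*Bcl3* (chr7:19808462-19822770, minus strand) encodes an atypical member of the IκB family that binds the NF-κB subunits p50 and p52 in the nucleus. It was at 43.1, 43.6, 49.5, 35.8 and 35.9 CPM in WT and at 39.8, 34.6, 35.6, 44.1 and 47.3 CPM in KO. The groups covered nearly the same range. The log2 fold change was −0.05 (SE 0.12, interval −0.32 to 0.22, edgeR adjusted p = 0.799).

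**Figure D2:**
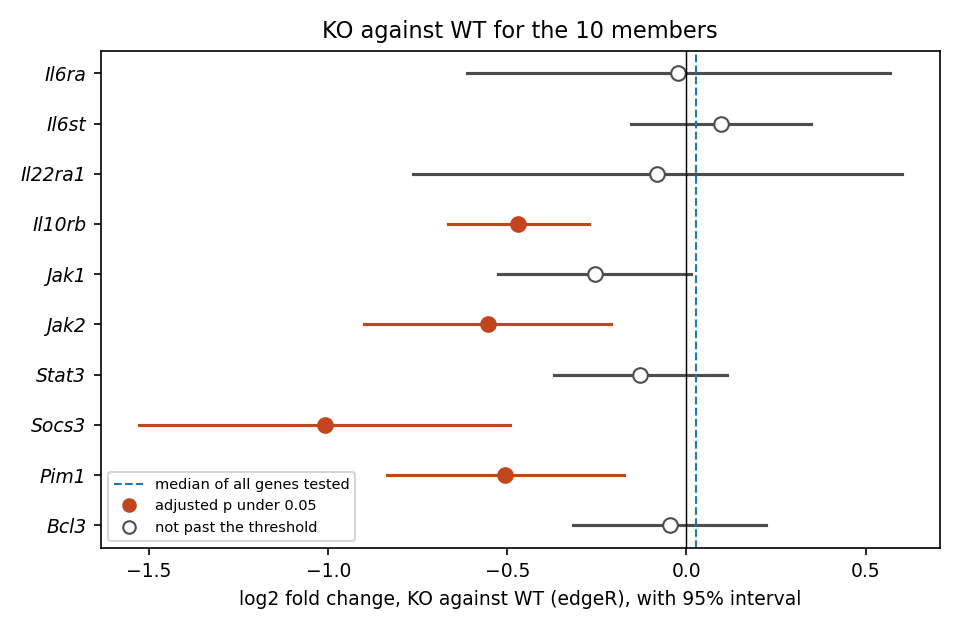
Log2 fold change of KO against WT (x axis, edgeR) with its 95% interval for each gene, filled where the adjusted p is under 0.05. The dashed line is the median of all genes tested, 0.03. The intervals of Il6ra and Il22ra1 are the widest, and those of Il10rb, Jak2, Socs3 and Pim1 lie below 0.

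The spread within groups differed between the genes. The coefficient of variation was larger in KO than in WT for 7 of the 10 genes. For *Il22ra1* it was 8.93% in WT and 45.3% in KO, and for *Il6st* 3.88% and 16.2%. For *Socs3* it was 31.7% in WT and 25.0% in KO. *Socs3* and *Pim1* thus varied widely among WT mice, where the highest library held 2.34 and 1.58 times the level of the lowest.

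Levels of different genes were compared as TMM CPM per kb of exon. In WT, *Jak2* had the highest mean level (35.2 ± 3.03 CPM per kb), followed by *Il22ra1* (30.0), *Socs3* (28.0), *Pim1* (23.5), *Jak1* (22.2), *Il10rb* (19.9), *Stat3* (19.7), *Bcl3* (16.8), *Il6st* (7.44) and *Il6ra* (0.985). Neighbours in this order overlapped in their ranges except at the low end, where *Il6st* (6.94 to 7.63 CPM per kb) was below *Bcl3* (14.5 to 20.0) and *Il6ra* (0.805 to 1.15) below *Il6st*. The ligand-binding chain of the IL-6 receptor was thus the least abundant mRNA of the group per kb in this bulk tissue, labelled proximal intestine. In KO the order began with *Il22ra1* (28.4 ± 12.9 CPM per kb) and *Jak2* (23.9 ± 5.54), and *Socs3* (13.9 ± 3.48) stood in place 8 in place of 3. With the longest transcript as the length, *Jak1* (32.7 CPM per kb in WT) and *Stat3* (31.1) moved up to places 2 and 4, and the KO order began with *Stat3* (28.4), *Il22ra1* (28.4) and *Jak1* (27.4), with *Jak2* in place 4.

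**Figure D3:**
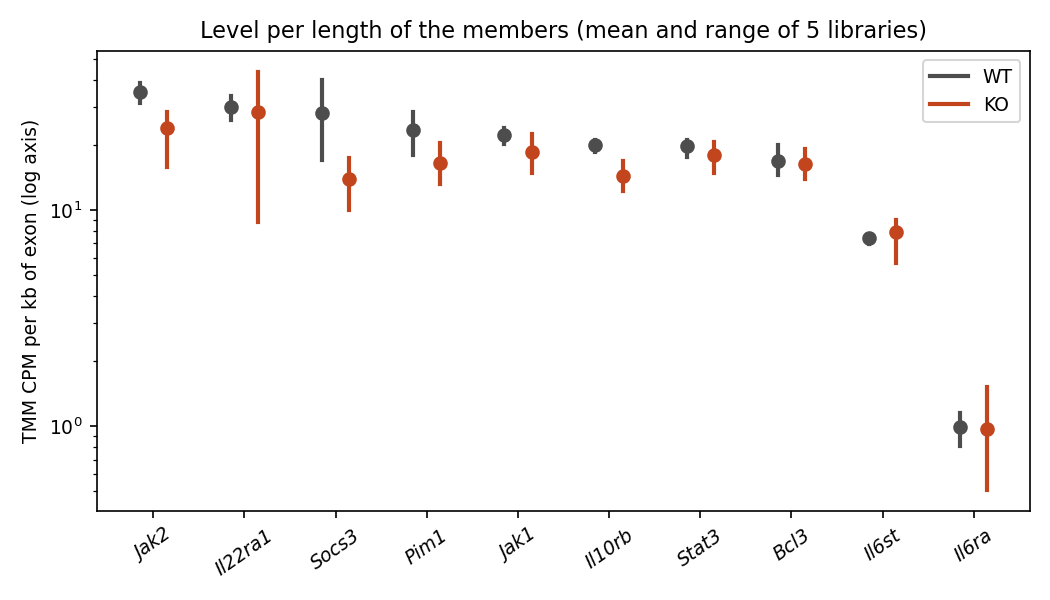
Level of each gene as TMM CPM per kb of exon on a log axis, with the mean as a point and the range of the 5 libraries as a line, WT in grey and KO in orange. The means of Il6st and Il6ra lie below those of the other 8 genes in both groups, and the KO range of Il22ra1 is the longest on this axis.

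Ratios of counts within a library do not depend on scaling between libraries. The pairs were chosen after the values had been seen and are described without a test. *Socs3* had 29.5 to 62.8 counts per 100 *Stat3* counts in WT and 19.7 to 27.2 in KO, so that every KO library was below every WT library. *Jak2* had 102 to 116 counts per 100 *Jak1* counts in WT and 74.1 to 104 in KO, where only KO replicate 3 lay within the WT range. *Il10rb* had 88.7 to 106 counts per 100 *Il22ra1* counts in WT. In KO the same ratio of the IL-22 receptor chains ran from 41.7 in replicate 1 to 283 in replicate 4, and the other 3 KO libraries were below the WT range. Against *Stat3*, *Il10rb* had 38.4 to 42.4 counts per 100 in WT and 24.4 to 45.3 in KO, where KO replicate 4 was above every WT library and the other 4 were below every one. *Pim1* had 30.2 to 51.9 counts per 100 *Stat3* counts in WT and 23.2 to 37.9 in KO, and these groups overlapped.

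**Figure D4:**
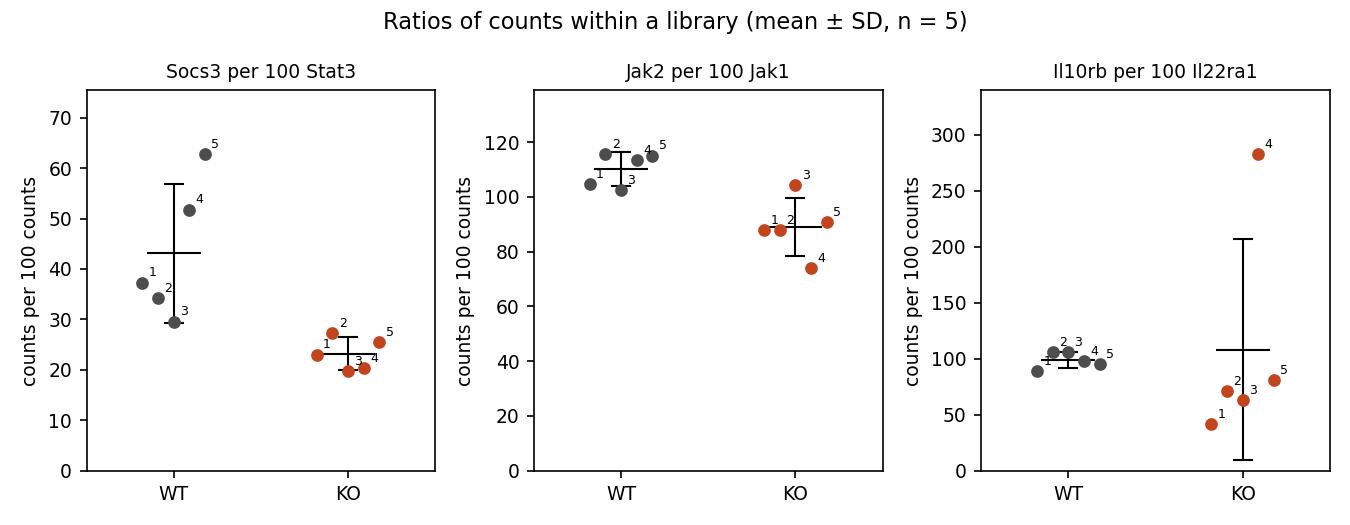
Counts of one gene per 100 counts of another in the same library for 3 pairs, with replicate numbers and bars for mean ± SD (n = 5). The groups do not overlap for Socs3 per 100 Stat3, and KO replicate 4 stands apart at 283 for Il10rb per 100 Il22ra1.

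For each gene, the genes with the nearest log2 CPM profile over the 10 libraries were found by root mean square distance after centring. *Jak2* was nearest to *Asxl2* (0.06) and *Vps13d* (0.07), and *Jak1* was near to *Arfgef1* (0.05). *Stat3* was nearest to *Pak4* (0.05) and *Lasp1* (0.06), *Il6st* to *Lats2* (0.06) and *Pja2* (0.08), *Il10rb* to *Nr6a1* (0.07) and *Sfmbt1* (0.09), and *Bcl3* to *Pfdn6* (0.06) and *Stx18* (0.07). The distances were larger for 4 genes, given here with the root mean square spread of each over the libraries: *Socs3* (spread 0.62, *Magix*, 0.20, and *Clca3a1*, 0.23), *Il22ra1* (spread 0.58, *Klf5*, 0.19), *Il6ra* (spread 0.43, *Gm16090*, 0.17, and *Fam120c*, 0.17) and *Pim1* (spread 0.34, *2900052L18Rik*, 0.16, and *Leng8*, 0.16). The spread of *Stat3* was 0.16, that of *Il6st* 0.17 and that of *Jak2* 0.38.

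Around the 10 genes, 97 further genes of the pathway were counted in 6 lists, of which 81 passed the filter. Of these, 19 rose, 9 fell and 53 did not pass the test. The share called, 34.6%, is to be read against the 29.9% of all genes tested, and the median log2 fold change of 0.14 against 0.03. Some of the genes that rose, *Saa1* among them, passed the filter through their KO libraries. Without WT replicate 3 the number higher was 12.

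Ligands were scarce. Of 16 cytokines 12 were below the filter, and *Il20* had 0 counts in all libraries. *Il6* had 2 counts in WT and 14 in KO, summed over 5 libraries each, with 0 to 6 per KO library, and *Il22* had 3 and 10, all 10 of them in KO replicates 2 and 5. *Osm*, which encodes oncostatin M, had 13 and 46 counts. *Il21* had 1 count in WT and 19 in KO, with 2 to 5 in each KO library, and its groups did not overlap (two-sided exact permutation p = 0.00794, the smallest that 5 against 5 allows, not adjusted for the 12 ligands compared this way). The 2 cytokines that name the pathway did not pass this test (two-sided exact permutation p = 0.127 for *Il6* and 0.444 for *Il22*).

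Of the 4 ligands tested, *Lif* fell and 3 did not pass the test, where 13.9% of all genes tested fell. *Lif*, whose product signals through gp130, was at 7.37 to 12.1 CPM in WT and 5.07 to 6.30 CPM in KO (log2 fold change −0.66, SE 0.15, edgeR adjusted p = 0.0100). *Clcf1* (4.44 ± 1.65 and 7.75 ± 3.88 CPM), *Ctf1* (2.0 ± 0.773 and 1.74 ± 0.656 CPM) and *Ebi3* (0.812 ± 0.238 and 0.498 ± 0.371 CPM) overlapped between the groups.

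Of 12 other receptor chains tested, 2 rose and 2 fell, and 8 did not pass the test (33.3% called, against 29.9% of all genes tested). *Lifr*, the partner of gp130 in the LIF receptor, fell from 24.8 ± 3.21 to 13.6 ± 3.29 CPM (log2 fold change −0.87, edgeR adjusted p = 0.00480). *Ifnlr1*, which pairs with *Il10rb* in the receptor for lambda interferons, fell from 39.4 ± 4.29 to 25.1 ± 2.61 CPM (−0.65, edgeR adjusted p = 0.00178). *Il11ra1*, the IL-11 receptor chain, rose from 14.7 ± 1.45 to 22.9 ± 8.23 CPM (0.64, edgeR adjusted p = 0.0350), and *Cntfr* from 0.955 ± 0.295 to 1.96 ± 0.698 CPM (1.03, edgeR adjusted p = 0.0233). KO replicate 4, the library with the highest smooth muscle markers, was the highest for *Il11ra1* (37.3 CPM) and *Cntfr* (3.19 CPM). Without that library the log2 fold change was 0.39 for *Il11ra1* (edgeR adjusted p = 0.0272) and 0.78 for *Cntfr* (0.0443). *Cntfr* had 9 counts in WT replicate 2 and passed the filter through its KO libraries. The number of these chains called higher was 0 without WT replicate 1, 2 or 3, and *Il11ra1* also lost its call without WT replicate 4 or 5 or KO replicate 3. The most abundant chains that did not pass the test were *Osmr* (12.4 ± 1.23 and 10.0 ± 0.970 CPM, though called lower by DESeq2 with an adjusted p of 0.0440), *Lepr* (16.8 ± 1.44 and 15.6 ± 6.23 CPM) and *Il10ra* (9.65 ± 1.27 and 9.47 ± 1.44 CPM).

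Of 10 other kinases and STATs, 0 rose, 1 fell and 9 did not pass the test (29.9% of all genes tested passed it). The 1 that fell was *Stat6*, the factor of IL-4 and IL-13 signals, at 172 ± 11.8 CPM in WT and 135 ± 20.5 CPM in KO (log2 fold change −0.34, edgeR adjusted p = 0.0405). The number lower in this list was 0 in 8 of the 10 fits without 1 mouse. *Tyk2*, the kinase that binds the *Il10rb* chain, was at 61.4 ± 4.82 and 52.0 ± 6.78 CPM (−0.24, edgeR adjusted p = 0.0974), *Stat2* at 62.7 ± 6.98 and 66.4 ± 23.1 CPM, and *Pim3*, a relative of *Pim1*, at 60.1 ± 11.4 and 61.8 ± 5.96 CPM.

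A list of 17 regulators held inhibitors other than *Socs3* and phosphatases of JAK and STAT signaling, and *Adam17*. Of these, 5 rose, 1 fell and 11 did not pass the test (35.3% called, against 29.9% of all genes tested). *Socs2* rose from 54.8 ± 9.66 to 76.1 ± 8.44 CPM (log2 fold change 0.47, edgeR adjusted p = 0.0194), *Socs5* from 8.74 ± 1.11 to 14.2 ± 3.17 CPM (0.70, 0.0113) and *Socs6* from 21.6 ± 2.03 to 32.4 ± 5.40 CPM (0.58, 0.00776). *Pias4*, an E3 SUMO ligase that inhibits STAT proteins, rose from 35.9 ± 1.34 to 43.2 ± 5.25 CPM (0.27, edgeR adjusted p = 0.0498), with the groups overlapping, and was not called by DESeq2 (adjusted p = 0.0565) or in 9 of the 10 fits without 1 mouse. *Socs4* fell from 108 ± 14.8 to 66.0 ± 12.2 CPM (−0.72, edgeR adjusted p = 0.00472). *Socs1*, which like *Socs3* encodes a direct inhibitor of JAK kinases and was picked out after its values were seen, rose from 3.38 ± 0.642 to 10.3 ± 5.79 CPM (1.60, edgeR adjusted p = 0.00581). The phosphatases *Ptpn6* (43.8 ± 5.34 and 54.0 ± 20.7 CPM) and *Ptpn11* (107 ± 3.54 and 109.5 ± 9.09 CPM), and *Adam17* (46.4 ± 2.88 and 42.8 ± 7.80 CPM), the protease that sheds the IL-6 receptor, did not pass the test. Without WT replicate 3 the number higher was 3, with *Socs2* at 0.43 (edgeR adjusted p = 0.0538).

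Of 28 further STAT3 target genes tested, 9 rose, 4 fell and 15 did not pass the test (46.4% called, against 29.9% of all genes tested). Among the 9, *Saa1*, *Saa3*, *Timp1* and *Fut2* had WT libraries as low as 0.0583, 0.255, 0.224 and 0.525 CPM. These genes passed the filter through their KO libraries, so the 9 and the share called rest in part on genes kept for high KO levels. The genes that rose included the epithelial oxidase *Duox2* and its maturation factor *Duoxa2*, the nitric oxide synthase *Nos2* and the receptor chain *Il4ra*. *Duox2* was at 7.06 to 176 CPM in WT and 67.1 to 1138 CPM in KO (log2 fold change 3.26, SE 0.97, edgeR adjusted p = 0.0273), and *Duoxa2* at 0.702 to 23.4 and 5.43 to 188 CPM (3.84, SE 1.06, edgeR adjusted p = 0.0205). *Nos2* was at 1.57 to 16.0 CPM in WT and 19.8 to 362 CPM in KO, with no overlap (4.55, SE 0.86, edgeR adjusted p = 0.00375). The sizes for these 3 genes rest in part on single libraries. Without WT replicate 1 the log2 fold change was 4.27 for *Duox2* and 5.16 for *Duoxa2*, and for *Nos2* it was 5.38 without WT replicate 5 and 3.79 without KO replicate 5. *Duox2* was no longer called without WT replicate 2, 3, 4 or 5 or KO replicate 3 (edgeR adjusted p of 0.0505 to 0.0598). *Il4ra* was at 66.4 to 75.0 and 79.2 to 99.8 CPM, also with no overlap (0.31, edgeR adjusted p = 0.0144).

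The acute-phase gene *Saa1*, counted among the 9 and picked out after the values were seen, had 12, 4, 1, 2 and 2 counts in WT and 64, 1730, 516, 228 and 5318 in KO, and so passed the filter through its KO libraries. It was at 0.0583 to 0.623 CPM in WT and 3.61 to 279 CPM in KO, and no fold is given over so few WT counts. KO replicate 5 held most of the KO counts, and reads of near-identical *Saa* genes may be split between them. *Fut2*, a fucosyltransferase of the intestinal epithelium picked out in the same way, was at 0.525 to 2.08 CPM in WT and 4.11 to 72.4 CPM in KO. It too passed the filter through its KO libraries, and no fold is given. Both genes had no overlap between the groups, with KO replicates 1 and 4 the lowest KO libraries in each.

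The 4 target genes that fell were *Fos* (166 ± 23.8 and 92.1 ± 34.4 CPM, log2 fold change −0.85, edgeR adjusted p = 0.0209), *Cebpb* (25.0 ± 2.60 and 15.5 ± 2.55 CPM, −0.69, 0.00368), *Hif1a* (83.8 ± 13.4 and 50.6 ± 19.5 CPM, −0.73, 0.0407) and *Vegfa* (135 ± 11.7 and 98.7 ± 21.5 CPM, −0.45, 0.0343). The number called lower was 2 with scaling to library size only or to the upper quartile, and in each of 5 fits without 1 mouse. *Cebpb* was called in all 10 such fits, whereas *Fos* lost its call in 1 (without WT replicate 1, edgeR adjusted p = 0.0508), *Vegfa* in 6 and *Hif1a* in 7. The antimicrobial lectins *Reg3b* (394 to 5497 CPM in WT, 1107 to 11705 CPM in KO) and *Reg3g* (220.2 to 1681 and 475 to 5548 CPM), which IL-22 is known to induce, overlapped between the groups and did not pass the test (edgeR adjusted p = 0.305 and 0.153). *Mcl1*, a survival gene, was at 309 ± 22.6 and 336 ± 55.6 CPM.

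Of 10 NF-κB genes around *Bcl3*, 3 rose, 0 fell and 7 did not pass the test, a share near the 29.9% of all genes tested. *Nfkb2*, which encodes p52, a partner of the *Bcl3* protein, rose from 41.8 ± 5.11 to 63.4 ± 4.12 CPM (log2 fold change 0.60, SE 0.10, edgeR adjusted p = 0.00166), and *Relb* from 63.5 ± 10.4 to 117 ± 28.9 CPM (0.88, SE 0.17, edgeR adjusted p = 0.00434). For both, every KO library was above every WT library. *Nfkbia*, the inhibitor that NF-κB induces against itself, rose from 54.5 ± 6.60 to 89.2 ± 29.3 CPM (0.71, edgeR adjusted p = 0.0222), with the groups overlapping and the call lost without WT replicate 1 (edgeR adjusted p = 0.0575) or 3 (0.0570). *Nfkb1* (90.9 ± 3.71 and 86.2 ± 8.74 CPM), *Rela* (39.2 ± 0.646 and 44.0 ± 3.67 CPM) and *Nfkbib* (40.5 ± 5.36 and 44.5 ± 9.96 CPM) did not pass the test.

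**Figure D5:**
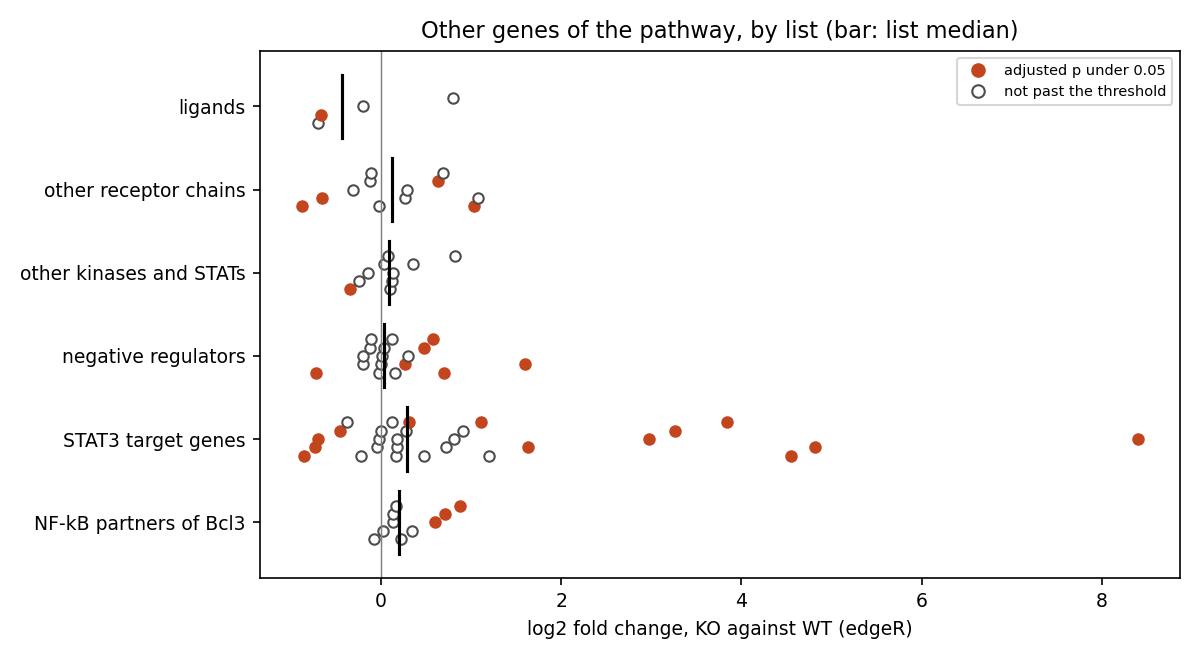
Log2 fold change of KO against WT (x axis, edgeR) for the 81 further pathway genes tested, by list, filled where the adjusted p is under 0.05, with a bar at the median of each list. Filled points lie on both sides of 0 in the receptor, regulator and target lists, and the point farthest to the right, Saa1, rests on 1 to 12 counts per WT library.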

How the data were processed

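RNA was taken from proximal intestine of 5 WT and 5 KO mice, and SMARTER mRNA-Seq libraries of single mice were sequenced. The authors deposited raw counts per Ensembl gene ID, without normalization. The submitters' processing notes name FastQC 0.11.9, Trimmomatic, HISAT2 2.0.4, SAMtools 1.3.1, DESeq2 1.14.1 and the build GRCm38 (mm10). Neither a read counter, nor an annotation release, nor a strand setting is named there (not given in the sources used here), so where genes overlap on opposite strands a read may have been assigned to either.

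Symbols for 34490 of 35275 IDs were taken from GENCODE M21 on GRCm38. The 10 genes, the 97 pathway genes and the 94 marker genes each matched 1 ID. The genes and lists were chosen with earlier results of these data known. filterByExpr, with a minimum count of 10 and a minimum total of 15, left 15610 genes, which were TMM-normalized and compared by edgeR's quasi-likelihood test (edgeR 4.0.16, R 4.3.3), two-sided, at a threshold of 0.05 after Benjamini-Hochberg adjustment across all genes tested. The edgeR p-values weigh the difference between the groups against the spread between these mice, estimated with information from all genes. They do not separate genotype from the difference in tissue region markers. SE and intervals are those of the edgeR model. For genes below the filter, the mean log2 CPM with a prior count of 2 was compared by exact permutation of the labels (252 arrangements). Where a library has 0 counts of a gene, up to 3 would be compatible with it at 95% confidence, for counting error only. Length per gene was the union of annotated exons. Fits were tested on simulated data.

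Named in the text were all 10 genes, *Slc39a14*, in each pathway list at most the 4 most abundant genes called in each direction and the 3 most abundant not called, ligands below the filter, and the 2 genes nearest to each of the 10, of which a few are not reported here. *Saa1*, *Saa3*, *Timp1*, *Fut2* and *Socs1*, and *Stat5a*, *Gm21970* and *Gm26885*, whose exons overlap one of the 10, were named outside this rule.

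Alternatives were DESeq2 1.42.0, 3 other scalings (RLE, library size only, upper quartile), 2 other filters (none, or a mean of 10 counts), robust dispersion, a block for the replicate number, each mouse left out in turn, another prior count, and another gene length.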

Additional observations from a re-analysis of the deposited data

Results flagged for a closer look

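Within each group of 5 libraries, the highest and the lowest value of the named genes were compared with the other 4 by Dixon's test. Of 102 groups checked, 14 had a library that stood apart, where chance gives about 1 in 20, and the groups share libraries and are not independent. None was left out of a test for this reason.

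Among the 10 genes of the pathway this was seen only for *Il6st*, at 77.0 CPM in WT replicate 3 (the other WT libraries 82.7 to 84.7) and at 63.4 CPM in KO replicate 5 (the other KO libraries 91.5 to 99.8). The targeted gene *Slc39a14* was at 160.1 CPM in KO replicate 1, against 78.5 to 93.8 CPM in the other 4, and still below the lowest WT library. KO replicate 4 was the highest KO library for *Il11ra1* (37.3 CPM), *Cntfr* (3.19 CPM) and *Pim3* (72.2 CPM). WT replicate 4 was the lowest WT library for *Osmr* (10.3 CPM) and *Hif1a* (60.3 CPM) and the highest for *Rela* (40.3 CPM). WT replicate 5 was the lowest for *Ptpn11* (100.9 CPM) and the highest for *Nos2* (16.0 CPM). WT replicate 1 was the highest for *Duoxa2* (23.4 CPM). KO replicate 3 was the highest for *Mcl1* (434 CPM), and KO replicate 5 for *Nfkbib* (61.6 CPM).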

How the results depend on the processing

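*Socs3* and *Il10rb* kept their call under all 8 other settings and in all 10 fits without 1 mouse. Scaled to library size only, 2 of the 10 genes were called lower: *Jak2* was at −0.43 and *Pim1* at −0.39, both no longer called, and *Il6ra* (0.10), *Il22ra1* (0.030) and *Bcl3* (0.078), none of them called in any setting, changed sign. Upper quartile scaling gave −0.44 for *Pim1*, no longer called, 0.042 for *Il6ra* and 0.031 for *Bcl3*. These scalings moved the median of all genes from 0.03 to 0.15 and 0.10, and the share of higher among all calls from 53.5% to 69.4% and 63.2%. Leaving out 1 mouse at a time gave −0.63 to −0.44 for *Jak2*, −0.59 to −0.43 for *Pim1*, −0.25 to 0.14 for *Il6ra*, −0.29 to 0.15 for *Il22ra1* and −0.11 to 0.021 for *Bcl3*. It gave 1634 to 2944 genes called higher over all genes and 12 to 23 pathway genes called higher. For ligands below the filter the difference in log2 CPM ran from −0.56 to 0.0055 for *Il10* and from −0.10 to 0.078 for *Il19*. The causes were not tested.

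Same-numbered WT and KO libraries deviated from their group means with correlations of −0.17 to 0.18, which gave no sign of a pairing by number. A weak pairing could be missed by so few correlations. With a replicate block, 3848 genes in place of 4660 were called, 1950 of them higher and 1898 lower, and 4 of the 10 genes were called, all lower. DESeq2 called 5679. Among the 10 genes, *Il22ra1* (SE 0.31) and *Il6ra* (SE 0.27) had the widest intervals.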
